A study of Mus musculus with 8 samples.

Results

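The 10 genes described here encode the parts of the pathway by which a cell shows fragments of its own proteins to CD8 T cells, namely the MHC class I heavy chains, their light chain, the peptide transporter with its loading chaperone, the inducible proteasome subunits and the transactivator of the set. They were chosen by gene symbol and not by a rule on their values, although earlier results of these data were known. All 10 were found among the 24259 symbols of the count table and passed the filter on low counts that left 12744 genes for testing. RNA was measured in 8 libraries, each from about 200 pre-germinal center B cells (B220+, low in IgD and binding the hapten NP). The cells were sorted from lymph nodes of C57BL/6 mice on day 3 of the response to NP-OVA, the hapten coupled to ovalbumin. In the HET group (4 libraries) the B cells had been helped by OT-II T cells, which recognise ovalbumin, carrying CD4-Cre and 1 floxed Bcl6 allele (CD4-CrexBcl6fl/+), and in the WT group (4 libraries) by CD4-Cre OT-II T cells. The CD45.1 recipients of both groups were Sap-/-, and T cells without this adaptor give little help to germinal centers. Both groups were given LPS in alum with the antigen. The age of the mice is not given in the sources used here. The OT-II T cells had been transferred, and the B cells that were sequenced were those of the recipients. These B cells therefore carried no Bcl6 deletion and hold no targeted gene by which to check the group names. Each group was 1 pool of recipients, sorted 4 times, so that the spread between libraries is that of sorting and library preparation, and the pool and the genotype of the helper T cells cannot be told apart.

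MHC class I molecules are assembled in the endoplasmic reticulum from a heavy chain, beta-2 microglobulin and a peptide. The peptide is cut in the cytosol by the proteasome, whose 3 constitutive catalytic subunits can be replaced by the immunoproteasome subunits in lymphocytes and after exposure to interferon, and is then carried across the membrane by the transporter TAP. Resting and activated B cells are known to carry much class I on their surface, and NLRC5 is known to drive transcription of the class I genes in lymphocytes as CIITA does for class II.

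The promoters of the heavy chain genes and B2m are shown because the transactivator and interferon act through short boxes in them. The set of RefSeq (GRCm38.p6) promoters used here held a start site for 8 of the 10 genes. The stretch upstream of the start site is printed 5′ to 3′ on the strand of the gene. Capitals mark every match, on either strand, to GAANNGAAA (a form of the interferon response motif), to the same motif with a further A before the spacer, to the palindromic NF-kB motif, and to TGACG (the core of the X2 box) and CCAAT (the core of the Y box). The windows are the 200 bases before the start site of H2-K1 (chr17:34000348-34000547, minus strand), of H2-D1 (chr17:35262894-35263093, plus strand) and of B2m (chr2:122147487-122147686, plus strand). The fourth is the whole stretch of 225 bases between the divergent start sites of Psmb9 and Tap1 (chr17:34187331-34187555, on the strand of Tap1). In the gene annotation GENCODE M21 the H2-D1 gene starts at 35262730, and the Psmb9 gene, on the minus strand, at 34187764. The H2-D1 window and the fourth window thus lie inside genes of that annotation, whose start sites differ from those of RefSeq.
H2-K1: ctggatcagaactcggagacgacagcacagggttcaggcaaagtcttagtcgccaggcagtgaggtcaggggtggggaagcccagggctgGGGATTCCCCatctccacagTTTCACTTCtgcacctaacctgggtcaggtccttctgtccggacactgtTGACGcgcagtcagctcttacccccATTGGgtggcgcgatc
H2-D1: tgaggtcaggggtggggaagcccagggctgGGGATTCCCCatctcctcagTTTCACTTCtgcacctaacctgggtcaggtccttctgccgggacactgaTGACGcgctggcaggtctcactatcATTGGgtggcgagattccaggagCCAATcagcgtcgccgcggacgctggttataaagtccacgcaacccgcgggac
B2m: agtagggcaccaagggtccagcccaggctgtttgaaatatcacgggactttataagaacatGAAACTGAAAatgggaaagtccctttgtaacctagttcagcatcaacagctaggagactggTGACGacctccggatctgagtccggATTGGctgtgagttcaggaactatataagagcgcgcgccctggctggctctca
Tap1: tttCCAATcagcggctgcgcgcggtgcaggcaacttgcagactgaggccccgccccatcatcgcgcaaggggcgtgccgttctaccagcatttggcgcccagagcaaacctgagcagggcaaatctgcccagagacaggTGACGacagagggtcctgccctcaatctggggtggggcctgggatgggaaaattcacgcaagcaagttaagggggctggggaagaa

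H2-K1 and H2-D1 shared the NF-kB palindrome, searched as a fixed sequence without variable bases, which 0.0639% of 32851 promoter windows of this length held. Its rarity is that of this sequence, since other forms of the NF-kB site were not searched in any window. Lower case letters, as in B2m, therefore do not show that a window lacks such a site. Both also shared the GAANNGAAA motif, which 4.995% held. B2m had the form with the further A, held by 2.27% of windows. TGACG was present in all 4 printed windows, and CCAAT likewise, against 15.7% and 29.3% of all windows of 200 bases (16.8% and 31.6% of those of 225 bases). Tapbp held CCAAT alone, and Psmb8 and Psmb10 held no match. The stretch between Psmb9 and Tap1 held TGACG and CCAAT and no match to the other motifs. These matches describe letters and were not tested as sites.

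The libraries held 6652386 to 12559189 counts, and the labelled cell type was checked by markers. Summed transcripts of 10 B cell markers, led by Cd74, (in CPM, the count scaled to the TMM-adjusted size of its library) ranged from 22173 to 23449.8 CPM in HET and from 25334 to 28075 CPM in WT, without overlap. All 10 had a log2 fold change below 0, where 49.9% of all genes tested were above 0, and 8 had an unadjusted p under 0.05 in edgeR, against 3.88% of all genes tested that were lower in HET at this p. In edgeR 0 passed the adjusted threshold, and in DESeq2 2 passed, against 0.687% of all genes. Summed T cell markers (12) ranged from 327 to 572 CPM in HET and from 207 to 416 CPM in WT, and NK cell markers (7) from 47.8 to 173 CPM and from 35.9 to 89.8 CPM. Each of these 11 and 6 tested markers had a log2 fold change above 0, and 1 marker of each list had an unadjusted p under 0.05 in edgeR, against 3.34% of all genes tested that were higher in HET. Myeloid and dendritic cell markers (14) ranged from 288 to 484 CPM in HET and from 273 to 680.1 CPM in WT, and markers of antibody-secreting cells (8) from 301 to 2159 CPM and from 251 to 564 CPM. Of the 11 myeloid and dendritic cell markers tested, 5 had a log2 fold change above and 6 below 0, with 1 in each direction at an unadjusted p under 0.05 in edgeR. DESeq2 called 1 NK cell marker and 1 myeloid marker and none of the T cell or antibody-secreting cell markers, and edgeR called 0 in each of these 4 lists. The extremes of the last 2 lists came from WT replicate 2 (680.1 CPM) and HET replicate 1 (2159 CPM). Without either of these libraries edgeR made no call among the 10 genes, as with all libraries. A count that is already 0 cannot show what these libraries contribute. Of the T cell markers, Cd4 had at most 0.758 CPM in any library. Others were well above this, such as Lck with 92.4 to 172 CPM and Cd8b1 with 12.2 to 123 CPM over all libraries. Class I genes are expressed by nearly all nucleated cells, and the part of these other cells in the values of the 10 genes was not tested. In bulk libraries, fewer cells of a type and less RNA per cell cannot be told apart.

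**Figure D1:**
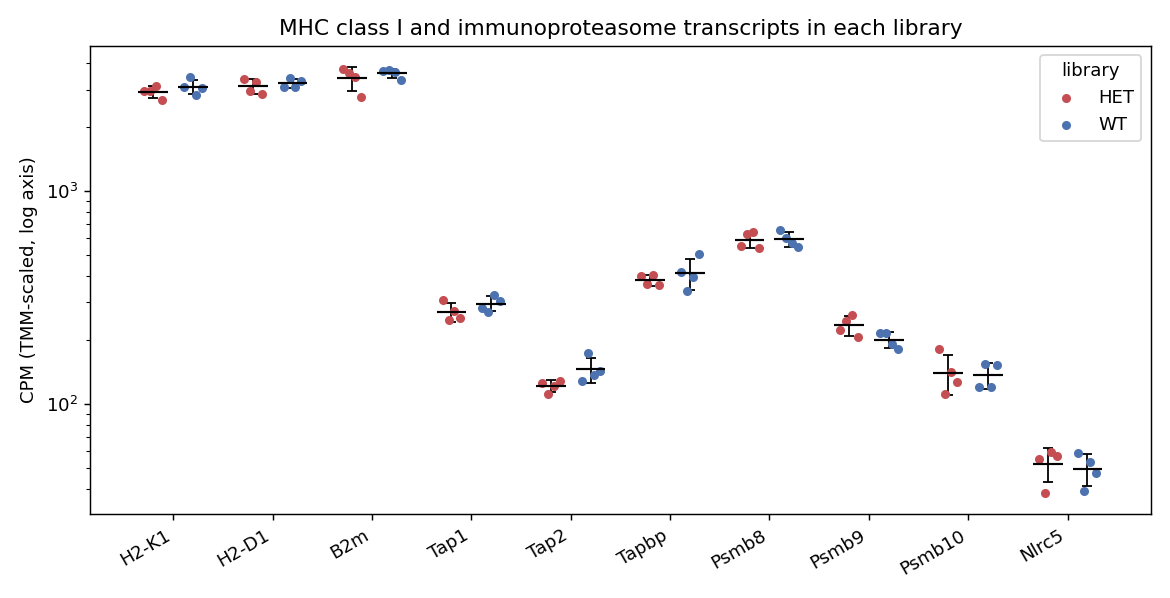
Each point is 1 library and gives the CPM (log axis) of a gene in the HET (red) or WT (blue) libraries, with the mean as a line and the SD as a bar (n = 4 each). The red and blue points overlap for each of the 10 genes, and the genes span from about 38.2 CPM (Nlrc5) to 3762 CPM (B2m).

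None of the 10 genes passed the test between HET and WT libraries (adjusted p of at most 0.05 in edgeR's quasi-likelihood test over all 12744 genes tested). The smallest adjusted p was 0.706. Over all genes tested, 3 passed, which is 0.0235%. At an unadjusted p under 0.05 the count was also 0 of 10, against 7.22% of all genes tested. DESeq2 called 0 of 10 at an adjusted p of 0.05, where it called 0.687% of all genes, and gave 2 of them, Tap2 and Psmb9, an unadjusted p under 0.05. The groups overlapped for all 10 genes in CPM, as they did for all but 4.61% of all genes tested. Fitted log2 fold changes (HET relative to WT) ran from -0.25 to 0.22, with 3 above and 7 below 0 and a median of -0.06. Of all genes tested 49.9% were above 0, and their median was -0.0014. The 95% intervals of these fold changes reached from 0.701-fold (Tap2) to 1.41-fold (Nlrc5). Larger differences in either direction were therefore outside the intervals of all 10 genes, whereas smaller ones remain possible, and the precision differs between genes. The intervals hold the spread between repeated sorts of 1 pool per group and none between mice.

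The heavy chains H2-K1 and H2-D1, which bind the peptide, were among the most abundant transcripts. H2-K1 (chromosome 17, 33996017 to 34000347 on GRCm38) was present at 2975, 2978, 3116 and 2675 CPM in HET replicates 1 to 4 and at 3094, 3440, 2848 and 3059 CPM in WT replicates 1 to 4. The highest and the lowest library, WT replicate 2 and HET replicate 4, differed by 1.29-fold. The groups averaged 2936 ± 186 and 3110.3 ± 245 CPM (SD, n = 4 each), and the log2 fold change came to -0.08 ± 0.07 (SE), with the 95% interval from -0.23 to 0.06 (edgeR adjusted p = 0.848). H2-D1 (chromosome 17, 35262730 to 35267499) was present at 3366, 2971, 3275 and 2859 CPM in HET and at 3107, 3431, 3100.3 and 3295 CPM in WT. HET replicate 4 was again lowest and WT replicate 2 highest. The log2 fold change came to -0.05 ± 0.06 (SE), with the 95% interval from -0.19 to 0.09 (edgeR adjusted p = 0.908). Class I genes are alike in sequence, and how the authors counted reads with several alignments is not given in the sources used here, so the split of reads between H2-K1, H2-D1 and other class I genes is uncertain.

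B2m encodes beta-2 microglobulin, the light chain without which heavy chains do not reach the surface. Its levels (chromosome 2, 122147686 to 122153083) were 3762, 3616, 3452 and 2785 CPM in HET and 3669, 3705, 3641 and 3326 CPM in WT. The lowest library of either group was its replicate 4. B2m averaged 3404 ± 432 CPM in HET and 3585 ± 175 CPM in WT (SD, n = 4 each), which gave a log2 fold change of -0.07 ± 0.08 (SE) and a 95% interval from -0.25 to 0.10 (edgeR adjusted p = 0.891). Its sign turned without HET replicate 4, where the log2 fold change was 0.01. The 3 chains together took 0.942% ± 0.0840 of all counts in HET and 0.991% ± 0.0422 in WT (SD, n = 4 each), and the 10 genes together 1.12% ± 0.0941 and 1.17% ± 0.0390.

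Tap1 and Tap2 encode the chains that pair to form the peptide transporter. Tap1 (chromosome 17, 34187553 to 34197225) was present at 309.6, 248, 275 and 253 CPM in HET and at 284, 271, 326 and 305 CPM in WT. HET replicate 1 lay above all but 1 WT library, and the log2 fold change came to -0.13 ± 0.10 (SE), with the 95% interval from -0.35 to 0.09 (edgeR adjusted p = 0.841). Tap2 (chromosome 17, 34203527 to 34216321) was present at 126, 111, 122 and 129 CPM in HET and at 129, 173, 137 and 143 CPM in WT. Its groups came close to separating, since HET replicate 4 (128.7 CPM) and WT replicate 1 (128.6 CPM) were the sole pair of libraries out of order. Tap2 averaged 122 ± 7.60 CPM in HET and 145 ± 19.4 CPM in WT (SD, n = 4 each). Its log2 fold change, -0.25 ± 0.12 (SE) with a 95% interval from -0.51 to 0.0042, lay furthest from 0 among the 10 genes (edgeR unadjusted p = 0.0533, adjusted p = 0.706). The most divergent library was WT replicate 2, and without it the log2 fold change was -0.16.

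Tapbp encodes tapasin, which holds the empty class I molecule at the transporter. It was present (chromosome 17, 33915899 to 33929292) at 401, 365, 404 and 362 CPM in HET and at 415, 338, 396 and 505 CPM in WT. The WT libraries were at both ends of the range, with replicate 2 lowest and replicate 4 highest of all 8. The log2 fold change came to -0.11 ± 0.11 (SE), with the 95% interval from -0.35 to 0.13 (edgeR adjusted p = 0.881), and it was 0.00014 without WT replicate 4.

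The immunoproteasome subunits Psmb8, Psmb9 and Psmb10 take the place of Psmb5, Psmb6 and Psmb7, respectively. Psmb8 (chromosome 17, 34197721 to 34201454) was present at 553, 629, 645 and 541 CPM in HET and at 658, 604, 569 and 548 CPM in WT. The groups covered nearly the same range, and the log2 fold change came to -0.0070 ± 0.09 (SE), with the 95% interval from -0.20 to 0.18 (edgeR adjusted p = 0.990). Psmb9 (chromosome 17, 34181987 to 34187764) was present at 223, 246, 261 and 206 CPM in HET and at 215, 215, 192 and 180.4 CPM in WT. HET replicate 4 was the sole HET library below the highest WT library. Psmb9 averaged 234 ± 24.2 CPM in HET and 201 ± 17.4 CPM in WT (SD, n = 4 each), which gave a log2 fold change of 0.22 ± 0.11 (SE) and a 95% interval from -0.01 to 0.45 (edgeR unadjusted p = 0.0615, adjusted p = 0.706). In GENCODE M21 the 5′ ends of Psmb9 and Tap1 overlap by 212 bases on opposite strands, and without a stated strand setting reads from that stretch cannot be told apart. Psmb10 (chromosome 8, 105935735 to 105938444) was present at 181, 112, 142 and 127 CPM in HET and at 119.5, 154, 120.3 and 152 CPM in WT. HET libraries were at both ends of its range, and the log2 fold change came to 0.04 ± 0.15 (SE), with the 95% interval from -0.29 to 0.37 (edgeR adjusted p = 0.977). Its sign turned without HET replicate 1, where the log2 fold change was -0.10.

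Nlrc5, the class I transactivator, was the least abundant of the set, with 295 to 687 counts per library. Its levels (chromosome 8, 94434356 to 94527272) were 55.2, 38.2, 59.6 and 56.7 CPM in HET and 58.7, 39.0, 53.1 and 47.1 CPM in WT. Replicate 2 was lowest in either group. The log2 fold change came to 0.08 ± 0.19 (SE), and its 95% interval, -0.33 to 0.50, was the widest of the set (edgeR adjusted p = 0.958).

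**Figure D2:**
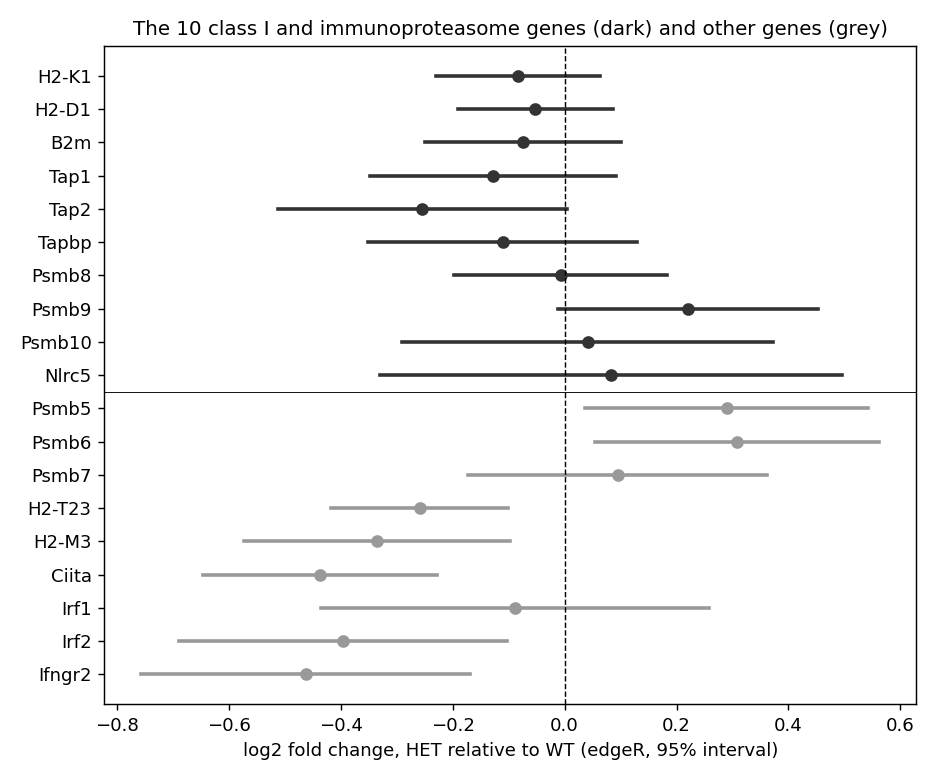
Each point is the log2 fold change of a gene (HET relative to WT, edgeR) with its 95% interval as a line. The 10 class I and immunoproteasome genes are in black, and a selection of genes from the other lists is in grey. All grey genes but Psmb7 and Irf1 had an unadjusted p under 0.05 in edgeR, so they do not show the other lists as a whole. All 10 black intervals cross 0, from Tap2 at -0.25 to Psmb9 at 0.22. The grey intervals of Psmb5 and Psmb6 lie above 0, and those of H2-T23, H2-M3, Ciita, Irf2 and Ifngr2 below it, although none of these 7 genes passed the adjusted threshold in edgeR.

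Levels were next compared between genes, which requires division by transcript length. The deposited TPM values were not used for this. Across 10265 genes, which are not independent replicates, the length implied by them followed the genomic span including introns (Spearman correlation 0.958) more closely than the merged exons (0.623), which lowers the value of genes with long introns such as Nlrc5. On the scale of CPM per kilobase of the longest principal transcript, as a mean over all 8 libraries, B2m stood at 4063 ± 372 (SD, n = 8), H2-K1 at 1867 ± 137 and H2-D1 at 1511 ± 94.8. The immunoproteasome subunits followed with 365 ± 28.7 for Psmb8, 161 ± 19.5 for Psmb9 and 106 ± 17.8 for Psmb10 CPM per kilobase. Tapbp stood at 137 ± 17.4, Tap1 at 96.2 ± 9.37, Tap2 at 38.8 ± 5.38 and Nlrc5 at 6.73 ± 1.13 CPM per kilobase. In this order the library ranges of Psmb9, Tapbp, Psmb10 and Tap1 overlapped from each gene to the next, and those of all other neighbours did not. With merged exons as the length, H2-D1 (1231 CPM per kilobase) stood above H2-K1 (1029), and Psmb9 moved behind Tapbp and Psmb10.

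Ratios within a library set each subunit against its partner and do not depend on library size. By principal transcript length, the ratio of Psmb8 to Psmb5 averaged 3.19 ± 0.285 in HET and 3.91 ± 0.332 in WT (SD, n = 4 each). The ratio was 3.26, 3.48, 3.20 and 2.80 in HET replicates 1 to 4 and 4.18, 4.16, 3.82 and 3.48 in WT replicates 1 to 4, so that HET replicate 2 and WT replicate 4 met. Its log2 difference of -0.30 did not pass (two-sided exact permutation p = 0.0571, adjusted p = 0.343 over 6 ratios, with 0.0286 the smallest p that 70 arrangements can give). Psmb9 per Psmb6 was 0.650 ± 0.114 in HET and 0.683 ± 0.0725 in WT, and Psmb10 per Psmb7 was 0.923 ± 0.337 in HET and 0.923 ± 0.114 in WT. Of the 3 inducible subunits, Psmb8 thus exceeded its constitutive partner in every library and Psmb9 was below its own, whereas Psmb10 lay on either side. The first 2 orders also held with merged exons as the length, where Psmb8 per Psmb5 ranged from 1.35 to 2.01 and Psmb9 per Psmb6 from 0.420 to 0.643, but Psmb10 per Psmb7 then ranged from 1.54 to 3.21.

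Tap1 per Tap2 was 2.60 ± 0.235 in HET and 2.42 ± 0.409 in WT, H2-K1 per H2-D1 was 1.22 ± 0.0634 and 1.25 ± 0.0571, and B2m per heavy chain (H2-K1 and H2-D1 summed) was 1.198 ± 0.103 and 1.21 ± 0.0905 (SD, n = 4 each). The log2 differences of these 3 ratios and of Psmb9 per Psmb6 and Psmb10 per Psmb7 lay between -0.08 and 0.12, with adjusted p = 0.857 for each in the exact permutation test. The tests were run on the deposited TPM. For B2m per heavy chain the tested ratio thus weights the 2 heavy chains by other lengths than the means given here.

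**Figure D3:**
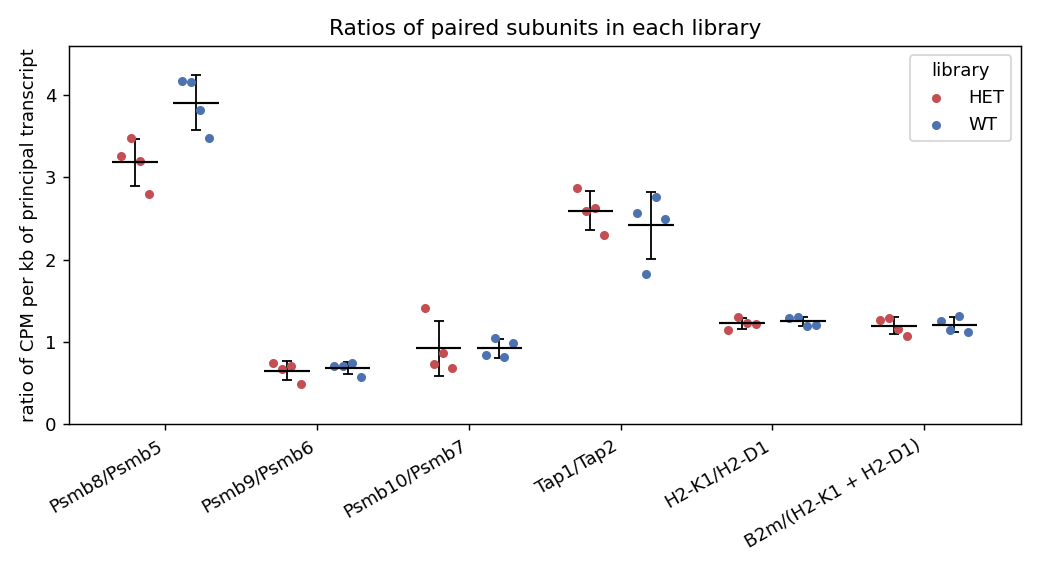
Each point is 1 library and gives the ratio of a gene to its partner in CPM per kilobase of principal transcript for HET (red) and WT (blue), with the mean as a line and the SD as a bar (n = 4 each). Psmb8 per Psmb5 is the ratio in which the groups come closest to separating, with HET from 2.80 to 3.48 and WT from 3.48 to 4.18.

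Of the constitutive catalytic subunits, Psmb5 (the partner of Psmb8) was present at 93.7, 99.7, 111 and 107 CPM in HET and at 86.9, 80.2, 82.3 and 87.1 CPM in WT. All 4 HET libraries lay above all 4 WT libraries, which was the case for 1.99% of all genes tested. The log2 fold change came to 0.29 ± 0.12 (SE) (edgeR unadjusted p = 0.0278, adjusted p = 0.617). At an unadjusted p under 0.05 and higher in HET there were 2 of 3, against 3.34% of all genes tested. Psmb6 had a log2 fold change of 0.31 ± 0.12 (SE) (edgeR unadjusted p = 0.0207, adjusted p = 0.602), and Psmb7 one of 0.09 ± 0.12 (SE) (edgeR adjusted p = 0.913).

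Genes for peptide supply and loading, such as the chaperones Calr and Canx, the trimming peptidase Erap1 and the proteasome activator Psme1, were all tested (16). None passed the threshold in edgeR, against 0.0235% of all genes tested. None had an unadjusted p under 0.05 in edgeR, against 7.22% of all genes tested. DESeq2 called 0, against 0.687% of all genes. With so few genes, counts of 0 lie near these shares. The list had 11 log2 fold changes above and 5 below 0 and a median of 0.05. Pomp, which helps to assemble the proteasome, was the one gene of the list whose groups did not overlap, at 172 CPM in HET and 148 CPM in WT on average (edgeR adjusted p = 0.706), and it was named after its values were seen. Over all genes tested, 1.99% were higher in HET without overlap.

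Other class I and class I-like genes were tested for 14 of 17 symbols, with 7 log2 fold changes above and 7 below 0 and a median of -0.02. None passed the adjusted threshold in edgeR or DESeq2, which 0.0235% and 0.687% of all genes did. At an unadjusted p under 0.05 in edgeR there were 2, both lower in HET, against 3.88% of all genes tested. H2-T23, which encodes the nonclassical molecule Qa-1, was present at 606.5, 537, 592 and 547 CPM in HET and at 672, 709.7, 677 and 672 CPM in WT. The highest HET library was below the lowest WT library, at a log2 fold change of -0.26 ± 0.07 (SE) (edgeR adjusted p = 0.423). H2-M3, which presents formylated peptides, was present at 124, 119.6, 124 and 115 CPM in HET and at 141, 143, 175 and 149.7 CPM in WT, again without overlap, at a log2 fold change of -0.34 ± 0.11 (SE) (edgeR adjusted p = 0.554). Groups without overlap and lower in HET made up 2.62% of all genes tested.

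Transcription factors of the class I and II promoters and components of interferon signaling were all tested (22). The median log2 fold change of the list was -0.11, with 5 above and 17 below 0, where 49.9% of all genes tested were above 0. In edgeR 0 passed, against 0.0235% of all genes tested. At an unadjusted p under 0.05 there were 3, all lower in HET, against 3.88% of all genes tested. Ciita, the class II transactivator and the relative of Nlrc5, was present at 324, 321, 342 and 290.3 CPM in HET and at 454, 389.8, 487 and 397 CPM in WT. Its groups did not overlap, as for the 2.62% of all genes tested that were lower in HET without overlap. The log2 fold change came to -0.44 ± 0.10 (SE), and Ciita passed in DESeq2 (adjusted p = 0.0121), as did 0.687% of all genes, but not in edgeR (adjusted p = 0.233). The interferon-gamma receptor chain Ifngr2 had a log2 fold change of -0.46 ± 0.14 (SE) (edgeR adjusted p = 0.481), and Irf2, a regulator of interferon-responsive promoters, one of -0.40 ± 0.14 (SE) (edgeR adjusted p = 0.571). Irf1, a transcription factor that carries the interferon signal to class I promoters, had a log2 fold change of -0.09 ± 0.16 (SE) (edgeR adjusted p = 0.946). Nlrc5 per Ciita, both in CPM per kilobase, was 0.135, 0.0944, 0.138 and 0.155 in HET and 0.102, 0.0793, 0.0864 and 0.0939 in WT. This ratio was chosen after the values were seen and is given without a test. Of 20 interferon-stimulated genes 19 were tested, with 14 above and 5 below 0, where 49.9% of all genes tested were above 0. Their log2 fold changes ran from -0.99 to 1.19, with a median of 0.27. Some of these genes were low, such as Isg15 (at most 7.19 CPM in any library) and Ifi44 (at most 4.78 CPM). None of this list passed in edgeR, against 0.0235% of all genes tested. At an unadjusted p under 0.05 in edgeR there was 1, Bst2 (log2 fold change 0.52 ± 0.22 SE, edgeR adjusted p = 0.627). The share of all genes tested that were higher in HET at this p was 3.34%.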

How the data were processed

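Libraries were made by the authors with a SMART-Seq2 protocol adapted to about 200 cells. Reads were passed through FastQC, aligned to GRCm38 with Hisat2 2.2.1 and counted per gene with HTSeq-count by the authors, who deposited whole-number read counts (24259 symbols) and TPM (24232 symbols). How TPM was computed, the strand setting and the annotation are not given in the sources used here. Column names gave the library of each of the 8 columns per table.

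The main test on the counts was that of edgeR 4.0.16 in R 4.3.3 (filterByExpr, TMM, robust quasi-likelihood F-test, group as the only factor, Benjamini-Hochberg over 12744 genes, threshold 0.05). CPM are TMM-scaled. The SE of a log2 fold change is its size divided by the square root of F, and 95% intervals use the total degrees of freedom of the fit. The test was tested on simulated data. The outcome is not given here, so that run does not show how small a difference the test could find. Ratios were compared with exact permutation tests over libraries. Lengths and positions are from GENCODE M21 (GRCm38), start sites and promoter sequences from RefSeq (GRCm38.p6). The study used DESeq2, which was an alternative here (1.42.0). Other alternatives were RLE size factors, no filter, a block on the replicate number, limma-voom with quality weights and limma-trend on log2(TPM + 1) and log2(TPM + 0.1) (limma 3.58.1), immunoglobulin genes left out and each library left out.

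Replicates are repeated sorts of 1 pool per group, so p-values measure the spread between sorts. Within a group, libraries differed beyond counting error (the chi-square divided by its degrees of freedom ran from 12.6 to 29.1), so no pair was treated as a duplicate. The deposited counts carry no molecular identifiers, so no counting interval was used, and a gene is reported by its spread over libraries. The genes and lists were chosen with earlier results of these data known. All 10 genes are named whatever their result. Of each other pathway list, the genes with an unadjusted p under 0.05 are named, and also Psmb5, Psmb6, Psmb7, Ciita and Irf1. 1 further gene that this rule names is not reported here. Cell type markers are given by counts and sums, and Cd4, Lck and Cd8b1 also by their range, picked after the values were seen. Levels between genes had been planned on the deposited TPM. Division of CPM by principal transcript length replaced it after the data were seen, which leaves the tests of ratios as they were, since a fixed length cancels on the log scale for pairs of genes. For B2m against the sum of both heavy chains the lengths enter as weights. The tests and log2 differences of ratios were computed on the deposited TPM, so for this ratio they carry the lengths that TPM implies.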

Additional observations from a re-analysis of the deposited data

Results flagged for a closer look

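Within each group of 4 libraries, the gap between an extreme library and its neighbour was set against the whole range of the group by Dixon's 95% critical value. Of 42 such groups 4 had a gap above it, where chance gives about 1 in 20, or 2.1. The groups share libraries and are not independent. WT replicate 4 had the lowest B2m among the WT libraries, at 3326 CPM against 3641 to 3705 CPM in the others. WT replicate 2 had the lowest summed B cell markers of the WT libraries, at 25334 CPM against 27968 to 28075 CPM, and the highest summed myeloid and dendritic cell markers, at 680.1 CPM against 273 to 321 CPM. Of all 8 libraries, WT replicate 2 also had the highest H2-K1, H2-D1 and Tap2. HET replicate 1 had 2159 CPM of summed antibody-secreting cell markers, and HET replicates 2 to 4 had 301 to 578 CPM. Without HET replicate 1 or without WT replicate 2, the count of the 10 genes past the adjusted threshold in edgeR was 0, as with all libraries. This count cannot show what these libraries contribute, and the log2 fold changes did move, as given below.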

How the results depend on the processing

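The count of the 10 genes past an adjusted p of 0.05 was 0 under each of the 16 alternatives, and it was also 0 at an adjusted p of 0.1 and at an unadjusted p of 0.05 in edgeR. The lowest adjusted p of any of the 10 genes under any alternative was 0.518, for Tap2 and Psmb9 with no filter on low counts. Leaving out 1 library gave 1 gene with an unadjusted p under 0.05 without HET replicate 4 or WT replicate 2 (Psmb9) and without WT replicate 1 (Tap2). At the same p there was also 1 in limma-voom (Psmb9), 1 in limma-trend on either TPM scale (Tap2) and 2 in DESeq2 (Tap2 and Psmb9). H2-K1, H2-D1, Tap1, Tap2 and Psmb9 kept the sign of their log2 fold change under all 16, but its size moved with 1 library left out, from -0.12 to -0.030 for H2-K1, from -0.087 to -0.0097 for H2-D1, from -0.19 to -0.072 for Tap1, from -0.31 to -0.16 for Tap2 and from 0.17 to 0.28 for Psmb9. With 1 library left out, log2 fold changes ranged from -0.12 to 0.013 for B2m, from -0.19 to 0.00014 for Tapbp, from -0.048 to 0.041 for Psmb8, from -0.10 to 0.14 for Psmb10 and from -0.013 to 0.21 for Nlrc5. Psmb10 was also at -0.022 in limma-trend on log2(TPM + 1) and at -0.022 on log2(TPM + 0.1). With 1 library left out, the log2 difference of the ratio ranged from -0.16 to 0.051 for Psmb9 per Psmb6, from -0.28 to 0.072 for Psmb10 per Psmb7, from -0.012 to 0.19 for Tap1 per Tap2, from -0.057 to 0.0033 for H2-K1 per H2-D1 and from -0.052 to 0.037 for B2m per heavy chain, while that of Psmb8 per Psmb5 kept its sign (-0.35 to -0.24). In the list of transcription factors and interferon signaling DESeq2 called 1 gene, Ciita. The cause of these changes was not tested.

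With the replicate number as a block, 0 of the 10 genes passed, and the count over all genes tested fell from 3 to 0. Libraries of the same number did not deviate together (correlations of deviations from the group means of -0.05 to 0.01), so the numbers were not treated as pairs. With sign flips over the same-numbered pairs as a block, no ratio can pass, since the smallest p is 0.125.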
